A study of Ananas comosus with 8 samples.

Results

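RNA-directed DNA methylation (RdDM) is the plant pathway in which small RNAs guide DNA methylation to matching sequences. The 8 genes described here are pineapple homologs of Arabidopsis genes. Those that make small RNAs are RDR6, DCL2 and DCL4, and those that act on chromatin are SUVH2/9, RDM1, KTF1, DRM2 and MORC6. They were chosen by gene identifier from the 41 DNA methylation pathway genes that the study lists by homology, out of 27024 genes in the expression matrix, and all 8 have a row in it. RNA was sequenced from the photosynthetic green tip and the non-photosynthetic white base of the 'D' leaf of MD-2, a cultivar of Ananas comosus var. comosus. The labels give 2 RNA-seq libraries for each tissue and neither a plant age nor a time of day. The study sampled both tissues at several times over a day and night, and its methods describe pairs of RNA-seq libraries at mid-morning alone. The values below may therefore come from a single time of day. The bisulfite libraries of the same tissues were not analysed here.

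In Arabidopsis, RNA polymerase IV and RDR2 make double-stranded RNA that DCL3 cuts into the small RNAs of canonical RdDM. A second route starts from RDR6, which copies single-stranded transcripts, and from DCL4 and DCL2, which dice the product into secondary small RNAs. The small RNAs are loaded into AGO4 and pair with RNA polymerase V transcripts, and DRM2 then methylates the DNA. The roles given below are those known from Arabidopsis, and the pineapple genes carry these names from homology searches of protein sequence and domains.

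The deposited matrix holds 1 value per gene and tissue, in FPKM (fragments per kilobase of transcript, scaled by the mapped fragments), without replicates, so that no error or test can be given and every difference below is one between single values. The tissue ratio was calculated as log2 of the green tip over the white base on FPKM + 1, which understates differences of genes with low FPKM, and kept for the 18372 genes that averaged over 0.5 FPKM. Differences of 2-fold or more were counted. The summed FPKM was 1.86 times as high in the green tip as in the white base, and the 100 highest genes held 50.0% of it in the green tip, against 18.7% in the white base. For this reason the ratios were repeated under other scalings, and relations between genes within a tissue, which no common factor can change, are given beside them. All 5 photosynthetic carbon fixation genes used to check the tissue labels had higher FPKM in the green tip, among them a PPDK gene (Aco024818) with 396 FPKM in the green tip, against 5.81 FPKM in the white base. These 5 are only a part of the carbon fixation genes that the study lists, chosen with its results known. Their ratios of the green tip to the white base ran from 2.54 to 280, and from 1.37 to 150 after both columns were brought to an equal sum. In whole tissue, fewer cells of a type and less RNA per cell cannot be told apart.

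Of the 8 genes, 7 had a mean over 0.5 FPKM and MORC6 did not. Of these 7, DCL2 and RDR6 were at least 2-fold lower in the green tip, RDM1 was at least 2-fold higher, and DCL4, SUVH2/9, KTF1 and DRM2 were within 2-fold. Among all genes 20.7% were at least 2-fold lower in the green tip and 17.2% were higher by 2-fold or more, so 2 and 1 of 7 genes are shares near this background. The median log2 ratio of the 7 genes was -0.49, beside -0.01 for all genes. The FPKM of the 7 genes ran from 3.16 to 24.8 in the green tip with a median of 9.03, and from 2.90 to 35.3 in the white base with a median of 13.8.

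**Figure D1:**
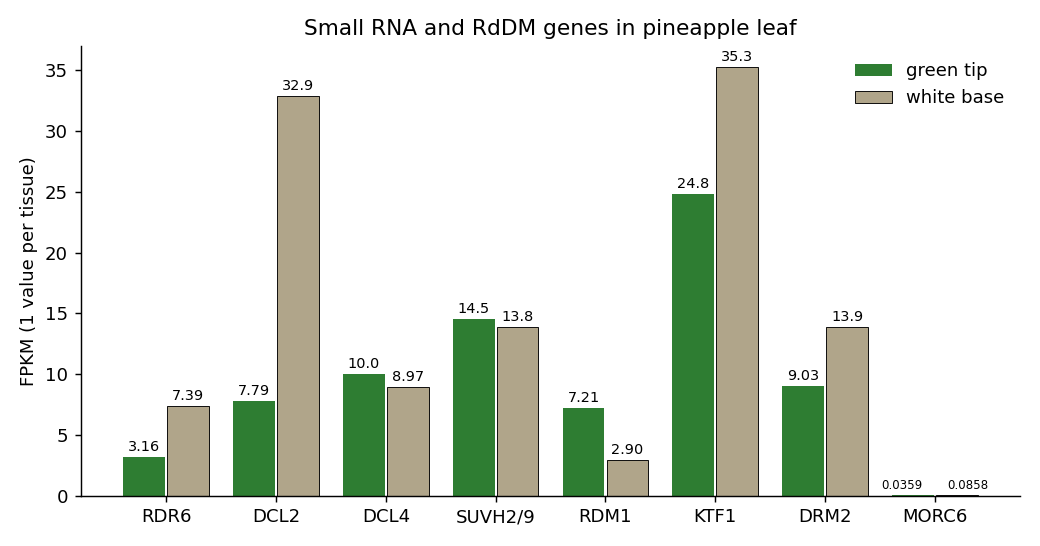
FPKM of each of the 8 genes in the green tip (green bars) and the white base (tan bars), 1 deposited value per bar and no error. DCL2 shows the widest gap, with 7.79 FPKM in the green tip, against 32.9 FPKM in the white base, RDM1 is the one gene past 2-fold in the other direction, with 7.21 FPKM in the green tip, against 2.90 FPKM in the white base, and MORC6 is close to 0 in both tissues.

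The small RNA makers differed from each other. DCL2 (Aco016157), a Dicer-like ribonuclease of antiviral and secondary small RNAs, had 7.79 FPKM in the green tip, against 32.9 FPKM in the white base. Its log2 ratio of -1.95 was the lowest of the 7 genes, and 10.4% of all genes had a lower one. Among the genes over 0.5 FPKM of each tissue, DCL2 stood at the 37.6th percentile in the green tip and at the 77.4th in the white base. It was therefore a gene of below-median level in the green tip and well above the median in the white base.

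RDR6 (Aco016551), the RNA-dependent RNA polymerase of the secondary small RNA route, had 3.16 FPKM in the green tip, against 7.39 FPKM in the white base. Its log2 ratio of -1.01 lay just past 2-fold and was under 2-fold at -0.66 after quantile normalization, where DCL2 alone of the 7 genes was lower by 2-fold or more, beside 18.4% of all genes. It had the lowest FPKM of the 7 genes in the green tip, at the 21.2th percentile, and stood at the 35.1th percentile in the white base. RDR2 (Aco015280), its relative in canonical RdDM, had 2.83 FPKM in the green tip, against 5.63 FPKM in the white base. The RDR6 to RDR2 ratio was 1.12 in the green tip, against 1.31 in the white base, so that the balance of both polymerases differed little while each was lower in the green tip.

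DCL4 (Aco008189), the main Dicer of trans-acting small RNAs, had 10.03 FPKM in the green tip, against 8.97 FPKM in the white base. Its log2 ratio of 0.14 was far within 2-fold, and its sign depended on the scaling, with -0.68 after both columns were brought to an equal sum (TPM rescaling). DCL4 thus did not share the difference of DCL2. The DCL2 to DCL4 ratio was 0.777 in the green tip, against 3.66 in the white base, a 4.71-fold difference that holds under any common scaling of a column. In the study's own list by time of day, DCL4 was lower in the green tip at mid-morning and higher before dawn.

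The Dicer family as a whole gives the context. DCL1 (Aco016650), which makes microRNAs, had 21.6 FPKM in the green tip, against 27.5 FPKM in the white base, and DCL3 (Aco009891), the Dicer of canonical RdDM, had 10.9 FPKM in the green tip, against 18.6 FPKM in the white base. The 4 Dicer-like genes summed to 50.3 FPKM in the green tip, against 87.9 FPKM in the white base. DCL2 made up 15.5% of this sum in the green tip, against 37.4% in the white base, DCL4 made up 19.9% in the green tip, against 10.2% in the white base, and DCL3 made up 21.6% in the green tip, against 21.1% in the white base. DCL2 was the lowest of the 4 Dicer-like genes in the green tip and the highest in the white base. The remaining small RNA gene on the list, HEN1 (Aco008418), which methylates the ends of small RNAs, had 2.91 FPKM in the green tip, against 2.70 FPKM in the white base. Of all 7 small RNA makers among the 41 genes, 2 were at least 2-fold lower in the green tip and none was at least 2-fold higher, beside 20.7% and 17.2% of all genes.

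**Figure D2:**
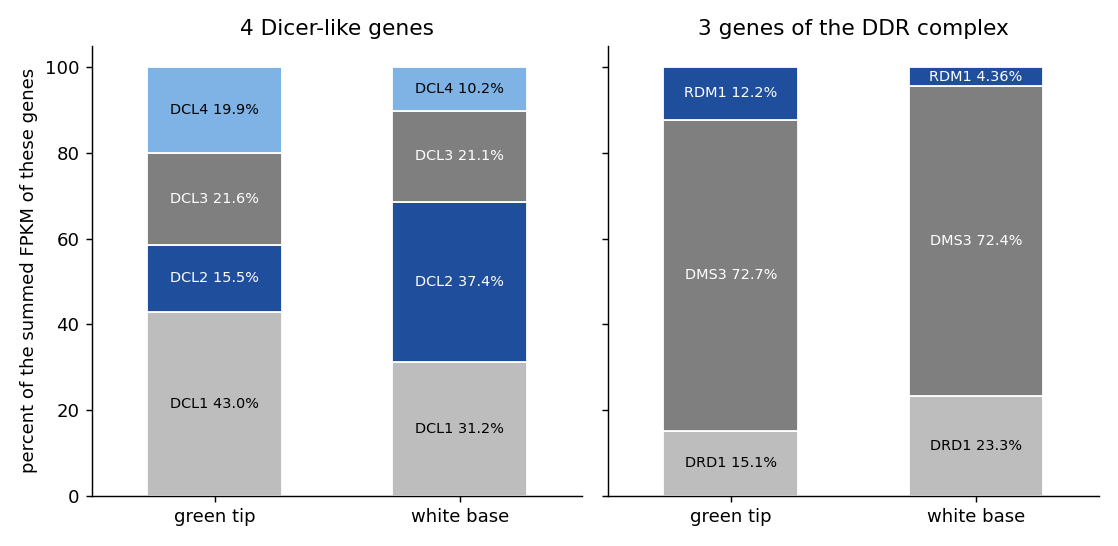
Share of the summed FPKM taken by each of 4 Dicer-like genes (left) and each of the 3 genes of the DDR complex (right), in percent, for the green tip and the white base. DCL2 takes 15.5% of the Dicer sum in the green tip, against 37.4% in the white base, and RDM1 takes 12.2% of the DDR sum in the green tip, against 4.36% in the white base.

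The genes that bring RNA polymerase V to chromatin also differed from each other. RDM1 (Aco004257), a small methyl-DNA binding protein that forms the DDR complex with the chromatin remodeler DRD1 and with DMS3, had 7.21 FPKM in the green tip, against 2.90 FPKM in the white base. Its log2 ratio was 1.07, and 84.0% of all genes had a lower one. RDM1 stood at the 35.9th percentile in the green tip and at the 18.6th in the white base. Of the 39 pathway genes with a mean over 0.5 FPKM, RDM1 alone passed 2-fold toward the green tip with the deposited values. The share of all genes past 2-fold in this direction was 17.2%. The log2 ratio of RDM1 stayed positive but under 2-fold after TPM rescaling, at 0.36. It was also under 2-fold, at 0.93, after rescaling to the same sum without the 100 highest genes of each tissue. Under that scaling 0 of the 7 genes and 14.8% of all genes were higher by 2-fold or more.

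The partners of RDM1 in the DDR complex did not show this pattern. DRD1 (Aco017413) had 8.92 FPKM in the green tip, against 15.5 FPKM in the white base, and DMS3 (Aco010843) had 43.0 FPKM in the green tip, against 48.1 FPKM in the white base. The RDM1 to DRD1 ratio was 0.808 in the green tip, against 0.187 in the white base, 4.32-fold higher in the green tip. The RDM1 to DMS3 ratio was 0.168 in the green tip, against 0.0602 in the white base, 2.79-fold higher in the green tip. Of the 3 transcripts of the complex, RDM1 was the scarcest per length in both tissues.

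SUVH2/9 (Aco026941), homologous to the methyl-DNA binding proteins that recruit RNA polymerase V, had 14.5 FPKM in the green tip, against 13.8 FPKM in the white base. Its log2 ratio of 0.07 was the closest to 0 of the 7 genes as deposited. It stood near the middle of the expressed genes in both tissues, at the 53.5th percentile in the green tip and the 52.3th in the white base. The sign of its ratio turned to -0.78 after TPM rescaling. In the study's own list by time of day, SUVH2/9 was lower in the green tip at every time point.

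Downstream of RNA polymerase V, KTF1 and DRM2 were moderately lower in the green tip. KTF1 (Aco005272), an SPT5-like protein that binds AGO4 and RNA polymerase V transcripts, had 24.8 FPKM in the green tip, against 35.3 FPKM in the white base, the highest FPKM of the 8 genes in both tissues. Its log2 ratio was -0.49, within 2-fold. AGO4 (Aco017860), the Argonaute to which it binds, had 42.7 FPKM in the green tip, against 80.3 FPKM in the white base. The KTF1 to AGO4 ratio was 0.582 in the green tip, against 0.439 in the white base, a 1.33-fold difference.

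DRM2 (Aco007653), the methyltransferase that carries out de novo methylation at the end of the pathway, had 9.03 FPKM in the green tip, against 13.9 FPKM in the white base. Its log2 ratio was -0.57, within 2-fold. CMT2 (Aco015994), a chromomethylase that methylates without small RNAs, had 4.28 FPKM in the green tip, against 18.2 FPKM in the white base. The DRM2 to CMT2 ratio was 2.11 in the green tip, against 0.764 in the white base, a 2.77-fold difference, so that DRM2 was above CMT2 in the green tip and below it in the white base. After TPM rescaling KTF1 and DRM2 passed 2-fold, with log2 ratios of -1.36 and -1.41.

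MORC6 (Aco020316), an ATPase of transcriptional silencing in Arabidopsis, was listed at 0.0359 FPKM in the green tip, against 0.0858 FPKM in the white base. Both values lie below the filter of 0.5 FPKM used here, and no ratio of MORC6 is given. The study took genes above the same level as expressed in its comparison with published data. The matrix gives no fragment count behind such low values, so a low level and a lack of transcript cannot be told apart from it.

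The order of the genes by FPKM differed between the tissues. From high to low, the order was KTF1, SUVH2/9, DCL4, DRM2, DCL2, RDM1, RDR6 and MORC6 in the green tip. It was KTF1, DCL2, DRM2, SUVH2/9, DCL4, RDR6, RDM1 and MORC6 in the white base. KTF1 stood at the top and MORC6 at the bottom of both orders, DCL2 ranked 5 in the green tip, against 2 in the white base, and RDM1 and RDR6 traded places. Without replicates it cannot be said whether neighbours differed beyond their spread, and DRM2 and SUVH2/9 in the white base were only 13.9 and 13.8 FPKM.

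Of the 33 pathway genes outside these 8, 32 had a mean over 0.5 FPKM. Of the 32, 4 were at least 2-fold lower in the green tip (the chromomethylase genes CMT3 and CMT2, NRPD2/NRPE2 and the demethylase gene DME, the last named after its value was seen) and none at least 2-fold higher. Among all genes 20.7% and 17.2% passed 2-fold in these directions. After TPM rescaling 21 of the 32 were lower by 2-fold or more, beside 42.0% of all genes. As deposited, 24 of the 32 were below a log2 ratio of 0, beside 9283 of all 18372 genes, and their median log2 ratio was -0.54. The 7 genes had a similar median of -0.49, with 4 below 0 and 3 above. The list of effectors and histone modifiers holds KTF1 and 8 other genes. As deposited and on FPKM + 1, none of the 9 was past 2-fold in either direction. Their log2 ratios ran from -0.97 for SUVR2 (Aco006945) to 0.51 for UBP26 (Aco013188), and KTF1 lay between. Without a pseudocount SUVR2 was past 2-fold, at -1.06. After rescaling to the same sum without the 100 highest genes of each tissue, SUVR2 was at -1.14 and AGO4 at -1.08. Under that scaling 23.5% of all genes were at least 2-fold lower.

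**Figure D3:**
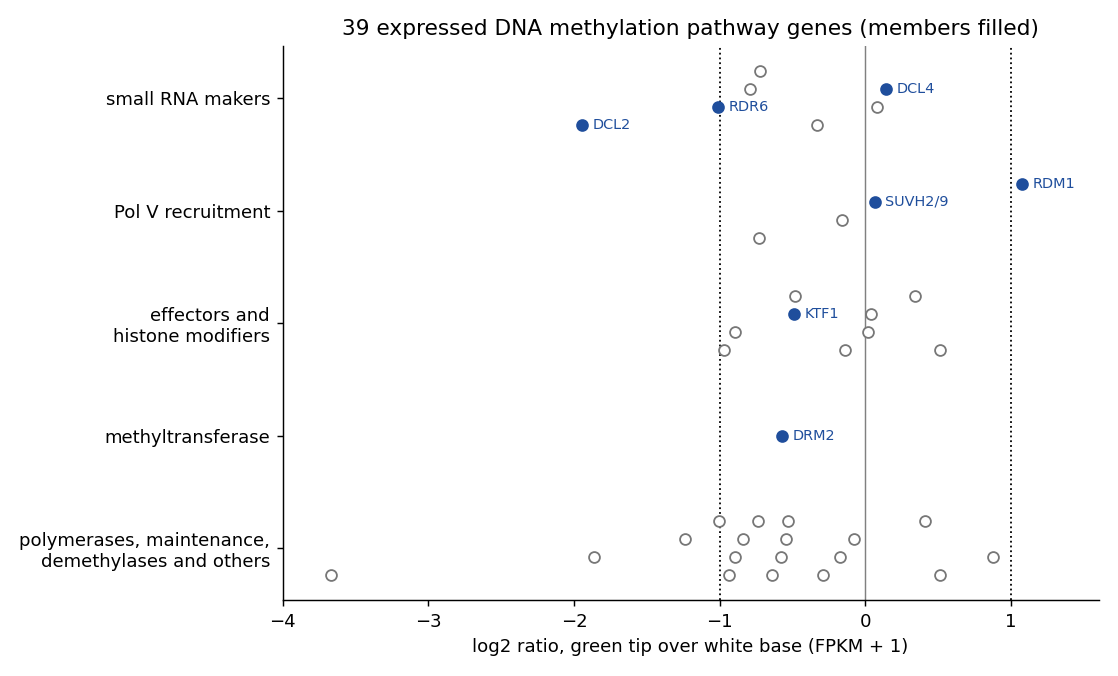
Log2 ratio of the green tip over the white base (FPKM + 1) for the 39 pathway genes with a mean over 0.5 FPKM, in rows by role, with the 7 genes described here filled and named and the 32 others open. Dotted lines mark 2-fold. DCL2 and RDR6 lie left of -1, RDM1 alone lies right of 1, and most open points lie left of 0.

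For each of the 7 genes, the pathway gene with the nearest log2 ratio was sought among the 32 others, a likeness that rests on 2 tissues alone. RDR6 was nearest to NRPD2/NRPE2 (Aco009438), a subunit shared by RNA polymerases IV and V, at log2 ratios of -1.01 and -1.01. DCL2 was nearest to CMT2, at -1.95 and -1.86, and KTF1 to IDN2 (Aco002916), a double-stranded RNA binding protein of RdDM, at -0.49 and -0.49. DCL4 and SUVH2/9 were nearest to HEN1, at 0.08. DRM2 was nearest to the demethylase gene ROS1 (Aco018808), at -0.57 and -0.58, although ROS1 had only 0.219 FPKM in the green tip, against 0.822 FPKM in the white base, where the pseudocount shrinks the ratio. RDM1 was nearest to the chromatin remodeler gene DDM1 (Aco027111), at 1.07 and 0.88, the widest of these gaps.

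**Figure D4:**
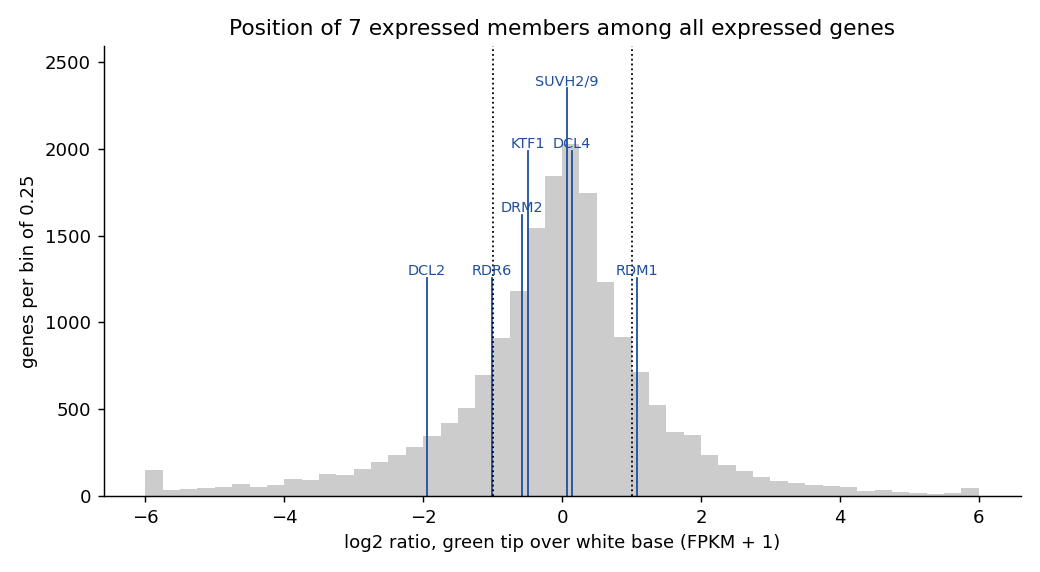
Histogram of the log2 ratio of the green tip over the white base (FPKM + 1) for 18372 genes, in genes per bin, with the 7 expressed genes as vertical lines whose height has no meaning and 2-fold as dotted lines. The 119 genes below -6 and the 34 above 6 are drawn in the outermost bins. DCL2 at -1.95 lies in the left tail, RDR6 and RDM1 lie close to the lines of 2-fold, and the other 4 genes lie near the centre.

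Other scalings of the columns moved the median of all genes. Relative to the deposited values, the median log2 ratio of all genes moved by -0.79 after TPM rescaling and by -0.16 after rescaling without the 100 highest genes of each tissue. It moved by 0.12 after quantile normalization. Median-of-ratios scaling, which divides out the median ratio of the columns, moved it by only -0.007. As deposited, 45.4% of the genes past 2-fold were higher in the green tip, and after TPM rescaling 17.6% were, where 4 of the 7 genes were at least 2-fold lower in the green tip beside 42.0% of all genes, and none was at least 2-fold higher beside 8.97%. With the median of all genes subtracted, the log2 ratio of DCL2 ran from -1.998 to -1.94 over the 5 scalings, that of RDR6 from -1.003 to -0.78 and that of RDM1 from 1.08 to 1.31. KTF1 ran from -0.64 to -0.48 and DRM2 from -0.60 to -0.53, and DCL4 and SUVH2/9 remained above the median of all genes, by 0.13 to 0.25 and by 0.03 to 0.08. Apart from quantile normalization, these scalings multiply each column by a common factor. Subtracting the median removes such a factor, so their close values here were fixed in advance, apart from the pseudocount.

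**Figure D5:**
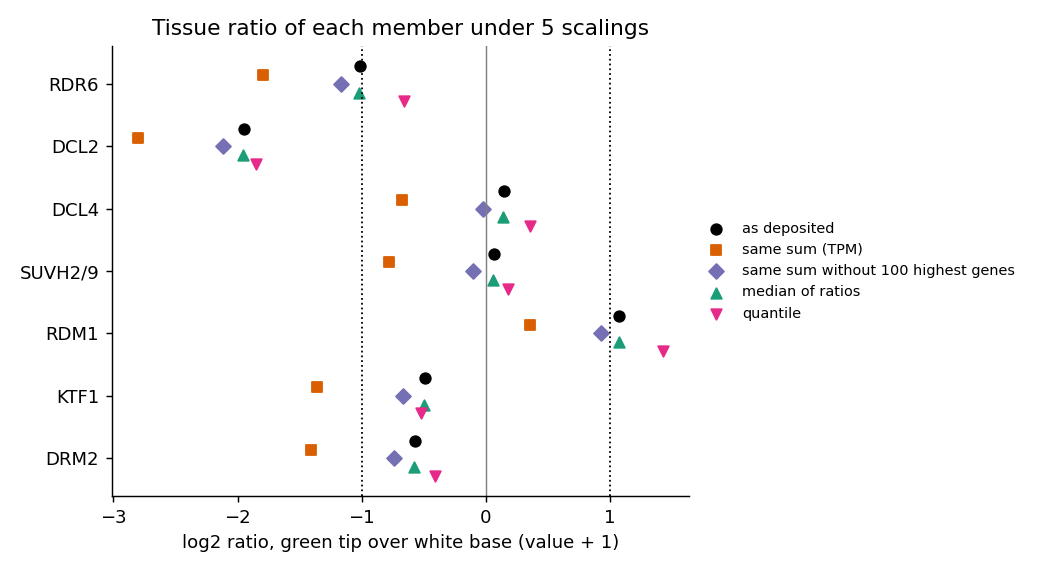
Log2 ratio of the green tip over the white base (value + 1) for the 7 expressed genes under 5 scalings of the columns, 1 symbol per scaling, with 2-fold as dotted lines. DCL2 stays left of -1 under all 5 scalings, RDR6, KTF1 and DRM2 stay left of 0, RDM1 stays right of 0, and DCL4 and SUVH2/9 lie on either side of 0.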

How the data were processed

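The authors deposited FPKM values in 1 matrix with a column for the green tip, a column for the white base and their mean. The submitters' processing notes name TopHat2 2.1.0, Cufflinks and Cuffdiff 2.2.1, whereas the paper's methods name Trimmomatic, HISAT2 and StringTie. Which of these made the matrix, how 2 libraries became 1 column, and whether strand was used are not given in the sources used here. The methods describe pairs of RNA-seq libraries at the mid-morning time point alone. The study's own list of these genes by time of day holds other FPKM values, which are not reported here. In that list DCL2 was lower in the green tip at every time point except before dawn, when it hardly differed between the tissues. RDR6 was lower in the green tip at mid-morning and in the afternoon, and hardly differed late in the evening and before dawn. RDM1 was higher in the green tip, and KTF1 and DRM2 were lower, at every time point of that list. FPKM divides by transcript length and by mapped fragments, so a few very high genes can lower the values of all others. In the deposited columns the median log2 ratio of all genes was nonetheless -0.01, and the wide shift of this median came with TPM rescaling.

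The low values of 226 genes were searched for a common step. At most 13 shared a bin of 0.01 in log2 ratio. No limit was set for how many would mark a step, so the search cannot decide whether there is one. The depth was not derived from the FPKM values, and no counting interval was calculated. No test was run, since a tissue has 1 value; the study's count test needs read counts. Genes and partners were chosen with earlier results of these data known. The named genes are all 8 genes, partners listed by name, the pathway gene of nearest ratio and a PPDK gene of the tissue check. DME and UBP26 were named after their values were seen. Alternatives were 4 other scalings, a pseudocount of 0.1, no filter and a mean over 1 FPKM, with the filter set on deposited FPKM. Calculations used Python 3.11.15, numpy 2.4.6 and pandas 2.3.3. The scaling and ratio steps were run on simulated columns without noise, which checks the code and cannot tell which scaling suits these data. No gene identifier matched the RefSeq table used here, so no sequence or position is given.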

Additional observations from a re-analysis of the deposited data

How the results depend on the processing

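No paired analysis was possible because each tissue has a single column, which also means that no library could be left out. Ratios were judged against 2-fold and counts against a change of 1.5 times. TPM rescaling, which by construction lowers every ratio, gave 4 of the 7 expressed genes at least 2-fold lower in the green tip (2 as deposited). It gave 0 higher (1 as deposited) and a median of the expressed genes of -1.36. It gave 21 other pathway genes at least 2-fold lower (4 as deposited). Among all genes it gave 7725 lower and 1648 higher (3812 and 3169 as deposited). Under it DCL4 was at -0.68 and SUVH2/9 at -0.78, both reversed. Rescaling to the same sum without the 100 highest genes of each tissue gave 0 of the 7 genes higher, beside 14.8% of all genes. It gave 9 of the 32 other pathway genes lower, beside 23.5% of all genes, and turned DCL4 to -0.022 and SUVH2/9 to -0.11. With quantile normalization 1 of the 7 genes, DCL2, was at least 2-fold lower, beside 18.4% of all genes. A pseudocount of 0.1 gave 7 of the 32 other pathway genes lower, beside 23.9% of all genes. The 7 ratios between genes within a tissue kept their direction and their side of 2-fold with a pseudocount of 1 and with quantile normalization. The matrix gives no fragment counts, which limits what can be said of MORC6.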
